A study of Mus musculus with 18 samples.

Results

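Nuclei immunoprecipitated from the livers of fed HEP-INTACT mice were compared with the nuclei left in the supernatant of the same livers, by RNA-seq counts per gene. In HEP-INTACT mice the nuclei of hepatocytes carry a tag by which beads take them out of the nuclei of the whole liver. The immunoprecipitated nuclei (IP) are labelled hepatocyte nuclei and the supernatant is labelled non-hepatocyte nuclei. Members were chosen by the column names of the deposited count table, 3 columns of IP from fresh liver of fed mice and 3 of the matching supernatant, which makes 6 of the 18 samples in all. All 20105 genes of the table were considered and 13881 had enough counts to be tested. Both groups come from the same 3 female mice, which had eaten ad libitum and were killed at the same clock time as mice fasted for 16 h from zeitgeber time 12, the onset of the dark phase. The IP and the supernatant of those 3 fasted mice are used below beside the fed values. All groups carry the tag, so there is no comparison with untagged mice. Which tag the nuclei carry and which promoter or Cre drives it are not given in the sources used here. Ages are not given there either.

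Hepatocytes make the plasma proteins, clotting factors and most complement proteins of the blood, and run gluconeogenesis, the urea cycle and bile acid synthesis in zones between the portal and the central vein. The other nuclei of the liver belong to sinusoidal endothelial cells, which line the blood spaces and scavenge from blood, to Kupffer cells, the resident macrophages, to stellate cells, which store retinoids, and to bile duct, fibroblast, lymphoid and myeloid cells. Ligands made by endothelial and stellate cells (WNT, R-spondin, BMP and HGF proteins) act on receptors of hepatocytes, so splitting nuclei in this way shows on which side of each signal a transcript lies. The RNA is nuclear and was not selected for poly-A tails, so unspliced transcripts are counted and levels reflect transcription and nuclear RNA rather than the messenger RNA of whole cells.

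Total counts were 25675086 to 54166985 in IP and 28315372 to 34770217 in the supernatant. No library repeated another. Between IP libraries the chi-square per gene was 52.2 for the column letters A and B, 208 for A and C and 146 for B and C, so the library with the letter C stands apart from the other IP libraries. In the supernatant it was 32.1 to 53.1. Letters name the columns of the count table, and the same letter in IP and supernatant marks the same mouse as far as the data show. Levels are given as CPM, which are counts scaled to the library total with edgeR's TMM factors over the 6 libraries, in the order A, B and C. Differences are log2 IP minus supernatant as fitted by edgeR, n = 3 libraries each. The SE beside them is that of the difference between group means of log2 CPM with a prior count of 2. It is not the SE of the fitted value, and the prior count makes it too small where a fraction has few counts. A gene is called higher or lower where the Benjamini-Hochberg adjusted p was under 0.05.

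Of the 13881 genes tested, 5236 (37.7%) were higher and 5369 (38.7%) were lower in IP, and the median log2 difference over all of them was 0.01. The smallest p of an exact permutation test on 3 against 3 libraries is 0.10, so no such test was made for single genes. These shares are the background against which every list below stands. The calls higher by at least 3 on the log2 scale numbered 1343 and took 31.9 to 35.0% of the counts of an IP library, against 1.68 to 1.93% of a supernatant library. The calls lower by at least 3 numbered 2704 and took 0.469 to 0.641% of an IP library, against 23.4 to 25.2% of a supernatant library. Differences reached further down than up. A difference beyond 6 was seen in 18 genes higher and 975 genes lower in IP, and one beyond 8 in 1 gene higher and 355 genes lower. These include genes without a count on one side, whose fitted difference depends on the prior count. Scaled by total counts alone the median of all genes moved to -0.36 and the calls split into 3850 higher and 6735 lower. Small differences can therefore change sign with the scaling, and those named below that did are given with both values. Scaled so, these named genes also lost their call, Abca1 (0.08), Ankrd17 (0.27), Ass1 (2.4), Eif4a2 (0.22), Fzd1 (0.48), Maff (0.49) and Rdh10 (0.26). Called lower with this scaling were Gata4 (-0.63), Jchain (-1.24), Lrp6 (-0.27), Polr2a (-0.50) and Ralgps2 (-0.60). Neither the counting tool nor its strand setting is stated in the labels, and the levels of genes named below that overlap a gene on the other strand are uncertain, which are B2m, C8g, Cp, Eif4a2, Eng, Esrra, Fgf1, Lgr5, Masp2, Nr1i3, Pltp, Polr2b, Ralgps2, Rfc4, Sds, Stab1, Thpo, Tor1aip1 and Immp2l. In bulk nuclei, fewer nuclei of a type and less RNA per nucleus cannot be told apart.

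Each of the 24 plasma protein genes was higher in IP (median 4.69 on the log2 scale). Apob, the scaffold of very low density lipoprotein, had the most counts of the list, with 2997, 2353 and 2534 CPM in IP, against 83.2, 145 and 82.8 CPM in the supernatant. The supernatant library B was the highest of its group and the groups lay far apart (4.66 ± 0.29, adjusted p = 1.13e-06). The largest difference was that of Itih1, a heavy chain of the inter-alpha-trypsin inhibitor of blood (5.79 ± 0.14, adjusted p = 4.56e-08). Ahsg, which encodes fetuin-A, had 1672, 1643 and 1376 CPM in IP, against 43.6, 66.2 and 41.3 CPM in the supernatant, a difference of 4.96 ± 0.23 (adjusted p = 3.29e-07). Albumin stood closer to the supernatant than these, with 2351, 2299 and 2247 CPM in IP, against 152, 399 and 198 CPM in the supernatant. The IP libraries hardly varied while supernatant B was above supernatant A and C, and the difference was 3.20 ± 0.41 (adjusted p = 4.55e-05). The mean supernatant level of Alb was 10.9% of its IP level, against 3.95% for Apob and 1.8% for Itih1. Differences below the median of the list were also seen in Apoa1 (2.86 ± 0.55), the apolipoprotein gene Apoc3 (3.09 ± 0.40) and the haptoglobin gene Hp (2.21 ± 0.34), which was the smallest of the list. Supernatant B had the highest level of each of these 4 genes within its group. Markers of other cell types in that library are given below, and their part in these levels was not tested.

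The 250 bases before the transcription start of the plasma protein genes with the most counts are shown to give the sequence in front of genes that lead that list. They are taken from RefSeq on GRCm38.p6 and run 5′ to 3′ on the strand of the gene, with matches to the motifs defined further down in capitals. That of Apob lies at chr12:7977427-7977676 on the plus strand, that of Alb at chr5:90460620-90460869 (plus) and that of Ahsg at chr16:22891765-22892014 (plus).
Apob: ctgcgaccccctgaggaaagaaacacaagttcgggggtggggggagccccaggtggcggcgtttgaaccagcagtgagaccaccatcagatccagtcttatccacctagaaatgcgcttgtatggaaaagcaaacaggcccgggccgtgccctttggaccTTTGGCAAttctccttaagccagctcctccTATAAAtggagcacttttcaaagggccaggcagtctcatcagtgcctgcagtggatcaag
Alb: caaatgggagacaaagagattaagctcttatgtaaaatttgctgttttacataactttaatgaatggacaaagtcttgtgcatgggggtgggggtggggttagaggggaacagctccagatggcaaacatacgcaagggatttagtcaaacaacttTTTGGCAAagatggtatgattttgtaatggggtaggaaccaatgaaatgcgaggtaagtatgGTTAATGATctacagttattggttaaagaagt
Ahsg: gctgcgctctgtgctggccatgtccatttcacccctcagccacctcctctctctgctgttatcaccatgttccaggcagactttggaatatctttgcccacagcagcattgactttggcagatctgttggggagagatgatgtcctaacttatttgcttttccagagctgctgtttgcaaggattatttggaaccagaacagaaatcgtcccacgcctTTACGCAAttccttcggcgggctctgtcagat
Apob holds a C/EBP match starting 90 bases before its start and a TATA box match at 60 bases. Alb holds a C/EBP match at 94 bases and an HNF1 match at 32 bases, and Ahsg a C/EBP match at 32 bases. Distances are to the start in RefSeq, which for Alb lies 19 bases from that in the count table.

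Of 20 hepatocyte transcription factor genes 18 were higher in IP, 1 was lower and 1 was not called, and their median difference was 5.30. Nr1i3, the xenobiotic receptor CAR, had 225, 249.9 and 277 CPM in IP, against 4.08, 4.23 and 3.14 CPM in the supernatant, the largest difference of the list (6.03 ± 0.16, adjusted p = 4.29e-08). Hnf4a, a nuclear receptor needed for hepatocyte identity, had 599, 623 and 482 CPM in IP, against 17.5, 19.7 and 14.5 CPM in the supernatant (5.04 ± 0.17, adjusted p = 9.32e-08). For both genes every IP library was far above every supernatant library. Nr1h4, the bile acid receptor FXR, had the most counts among the genes higher in IP and a smaller difference, with 1311, 1060.0 and 1221 CPM in IP, against 345, 247 and 246 CPM in the supernatant (2.10 ± 0.18). Cebpa, a factor that hepatocytes share with myeloid cells, had the smallest difference of the genes higher in IP (1.75 ± 0.30, adjusted p = 0.000256). Rxra, the partner of many nuclear receptors, was not called, with 1368, 813 and 1405 CPM in IP, against 1023, 603 and 1093 CPM in the supernatant (0.40 ± 0.37, adjusted p = 0.221), and its B library was the lowest in both fractions. With the letter as a block it was called, at 0.40 (adjusted p = 0.0111). Esrra was just past the threshold in the other direction (-0.28 ± 0.09, adjusted p = 0.0496). It missed the threshold with the letter as a block (adjusted p = 0.0501) and without any 1 library other than supernatant B, at -0.23 to -0.32.

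Genes of both zones were in the IP. Of 20 periportal genes 19 were higher and 1 was lower, with a median of 5.19, and of 22 pericentral genes 21 were higher and 1 was lower, with a median of 4.09. Cps1, which makes carbamoyl phosphate for the urea cycle, had 9518, 8844 and 5305 CPM in IP, against 208, 215 and 137 CPM in the supernatant (5.40 ± 0.34, adjusted p = 1.02e-06), and the IP library C was the lowest of its group. The largest periportal difference was in the serine dehydratase gene Sds (5.79 ± 0.52) and the smallest among the genes higher in IP in Apoa4 (1.37 ± 0.53). Apoa4 was not called without IP B (1.13), supernatant A (1.09) or supernatant C (1.14), and was at 2.06 without supernatant B. Ctsc, a lysosomal protease that immune cells use to activate granule proteases, was lower in IP, with 103, 98.5 and 93.6 CPM in IP, against 567, 969.7 and 655 CPM in the supernatant (-2.89 ± 0.23, adjusted p = 4.09e-06). Ass1, the urea cycle enzyme before Asl, was listed at only 1.32, 3.08 and 0.31 CPM in IP, against 0.08, 0.53 and 0.03 CPM in the supernatant, so libraries of the fractions overlapped. Its difference of 2.77 was not called without IP A (2.87), IP B (1.92), supernatant A (2.36) or supernatant C (2.32), and was 4.69 without supernatant B. On the central side Cyp2e1, an ethanol-oxidising cytochrome, had 1175, 1571 and 2057 CPM in IP, against 30.7, 49.3 and 48.9 CPM in the supernatant (5.22 ± 0.32, adjusted p = 9.38e-07). Lgr5, the R-spondin receptor of cells around the central vein, had 123, 144 and 106 CPM in IP, against 2.01, 2.01 and 2.03 CPM in the supernatant, the largest difference of that list (5.94 ± 0.13, adjusted p = 3.71e-08). Glul, glutamine synthetase, which in the liver marks the cells next to the central vein, was only 1.71 ± 0.07 higher in IP (adjusted p = 1.61e-06), and Znrf3 had the smallest difference of the genes higher in IP (1.53 ± 0.10). Nkd1, a WNT feedback gene, was lower in IP, with 25.8, 29.3 and 23.6 CPM in IP, against 114, 59.97 and 76.97 CPM in the supernatant (-1.68 ± 0.29, adjusted p = 0.000202).

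**Figure D1:**
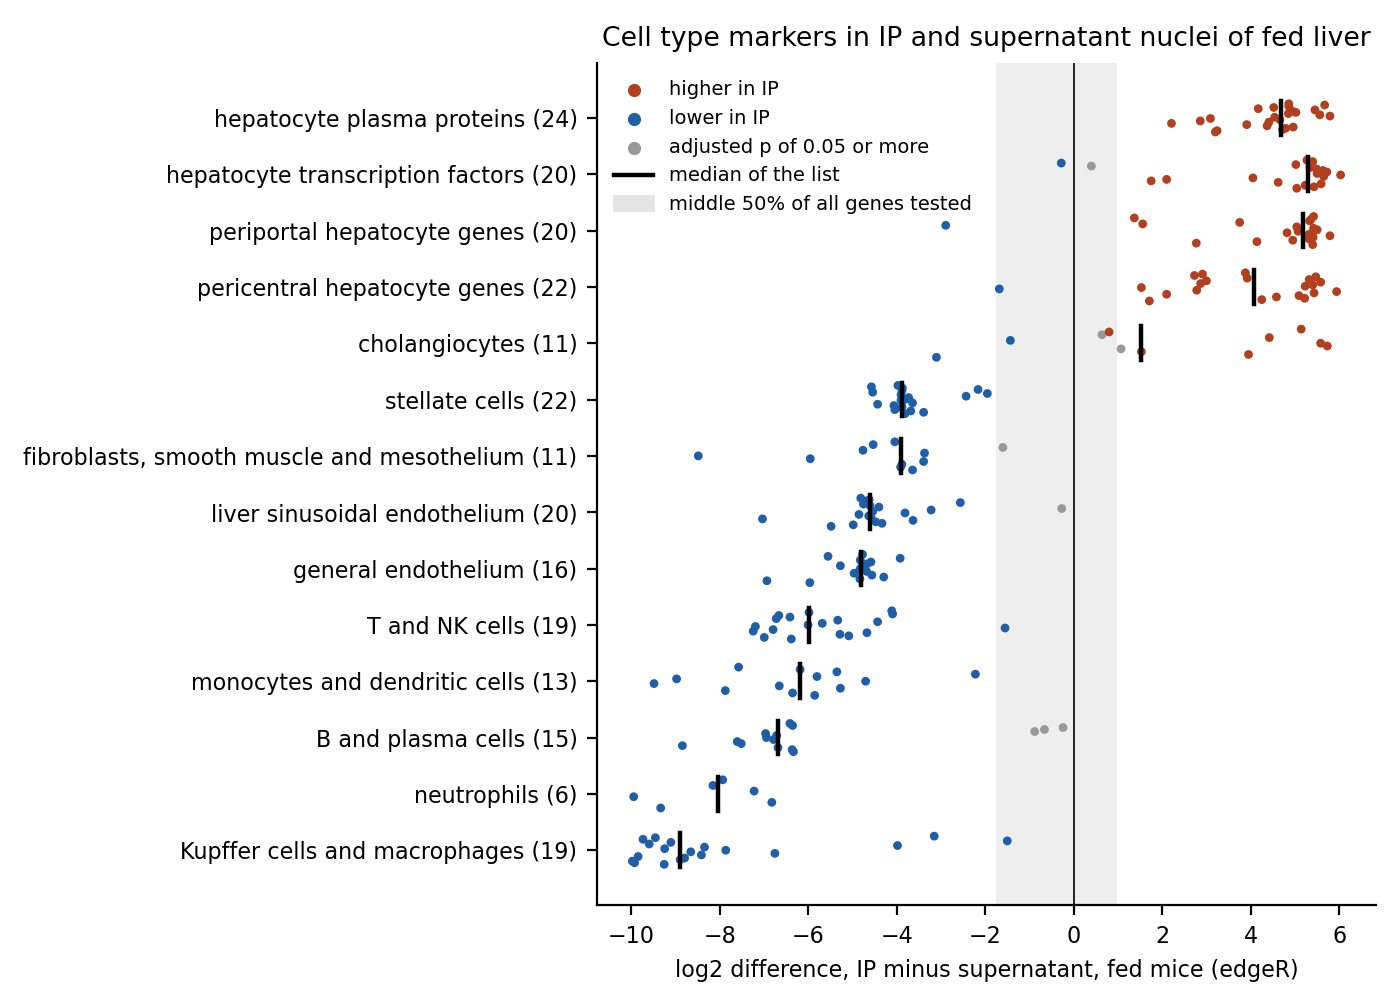
Log2 difference of IP minus supernatant nuclei of fed liver (horizontal axis) for the genes of 14 marker lists (rows, number of genes tested in brackets), 1 point a gene, with the median of each list as a bar and the interquartile range of all 13881 genes tested shaded. The 4 hepatocyte lists have medians of 4.09 to 5.30, and the lists of non-parenchymal cells step down to -3.87 for stellate cells, -4.59 for sinusoidal endothelium and -8.89 for Kupffer cells.

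Sinusoidal endothelial genes were lower in IP for 19 of 20 and general endothelial genes for 16 of 16, with medians of -4.59 and -4.81. Stab2, the hyaluronan scavenger receptor, had 32.4, 33.7 and 70.5 CPM in IP, against 1659, 1329.7 and 1327 CPM in the supernatant. Every IP library was far below the supernatant, with IP C the highest of its group (-4.98 ± 0.38, adjusted p = 3.07e-06). The largest difference was in Mrc1, the mannose receptor that macrophages also use (-7.03 ± 0.26), and the smallest called one in F8 (-2.56 ± 0.13). Gata4, which sinusoidal endothelium and stellate cells share with other lineages, was not called, with 79.9, 113 and 140.3 CPM in IP, against 160.4, 130.2 and 112 CPM in the supernatant (-0.27 ± 0.28, adjusted p = 0.281). It was called lower without IP C (-0.49, adjusted p = 0.0492). Cdh5, the endothelial cadherin, had the most counts and the largest difference of the general list (-6.93 ± 0.35, adjusted p = 2.26e-07), and Cldn5 the smallest (-3.92 ± 0.46).

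All 19 Kupffer cell and macrophage genes tested were lower in IP, with a median fitted difference of -8.89, the lowest such median of all lists of cell types here. Adgre1, the F4/80 antigen, had 1.08, 2.23 and 1.17 CPM in IP, against 1158, 1668 and 1135 CPM in the supernatant, and Timd4, a receptor for dying cells, had 0.50, 0.67 and 0.52 CPM in IP, against 485, 728 and 446 CPM in the supernatant (-9.97 ± 0.25, adjusted p = 4.67e-08). In both genes the highest IP value was below 1% of the lowest supernatant value. Marco, a scavenger receptor, varied most between mice, with 0.19, 1.34 and 0.18 CPM in IP, against 119.6, 453 and 48.9 CPM in the supernatant, and was highest in letter B of both fractions (-8.79 ± 1.25, adjusted p = 0.000149). Mertk, a receptor by which phagocytes clear dying cells, had the most counts and a smaller difference, with 138, 155 and 210.0 CPM in IP, against 1355, 1574 and 1531 CPM in the supernatant (-3.15 ± 0.19, adjusted p = 1.26e-06). Msr1 has no row under that symbol in the count table.

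Other blood-derived cells were also lower in IP. All 13 monocyte and dendritic cell genes tested were lower, with a median of -6.18. The interferon factor Irf8 had the most supernatant counts among them (-5.80 ± 0.35), and Zbtb46 of dendritic cells had the smallest difference (-2.22 ± 0.23). The chemokine receptor gene Xcr1, at 0, 0 and 0 CPM in IP, against 1.79, 3.52 and 2.09 CPM in the supernatant, had no count in any IP library and was at least 88.3-fold lower there against a floor of 3 counts over the group. All 6 neutrophil genes tested were lower, with a median of -8.04, or -7.07 with the 2 genes without a count in IP at their bound. Csf3r, the G-CSF receptor, had 0.13, 0.40 and 0.29 CPM in IP, against 163, 167 and 155 CPM in the supernatant (-9.33 ± 0.38, adjusted p = 4.23e-08), and S100a9 was at least 122-fold lower against the same floor. S100a8, its calprotectin partner, had the smallest fitted difference, with 1 count in IP against 160 in the supernatant, a ratio of 156 with an exact counting interval of 27.6 to 6200. All 19 T and NK cell genes tested were lower (median -5.98), from Skap1, an adaptor of the T cell receptor (-7.24 ± 0.23), to Tcf7 (-1.55 ± 0.34). Of 15 B and plasma cell genes 12 were lower (median -6.68). Bank1, a scaffold of B cell receptor signalling, had 1.93, 2.01 and 4.67 CPM in IP, against 1149, 1454 and 1370.0 CPM in the supernatant (-8.84 ± 0.42, adjusted p = 3.53e-07). Cd79a, a signalling chain of the B cell receptor, had the smallest difference of the genes lower in IP (-6.33 ± 0.67). Ralgps2, Mzb1 and Jchain were not called, at -0.24, -0.66 and -0.88 on the log2 scale, and Jchain was called lower without supernatant A (-1.23).

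Stellate cell genes were lower in IP for 22 of 22, with a median of -3.87. Reln had the most counts, with 53.1, 54.5 and 110.4 CPM in IP, against 980.2, 677 and 629 CPM in the supernatant (-3.39 ± 0.40, adjusted p = 2.63e-05). The IP library C was the highest of its group and the lowest supernatant library was C. The largest difference was in Adamtsl2 (-4.57 ± 0.51). Of 11 genes of fibroblasts, smooth muscle and mesothelium 10 were lower (median -3.91), with the collagen gene Col3a1 at -3.88 ± 0.23 and the mesothelial gene Msln at -3.37 ± 0.72. Pi16 had no count in any IP library and was at least 43.5-fold lower. Without IP C the difference of Msln was -5.31. Lrrn4 was not called (-1.60), and it was called lower without IP B (-3.82).

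The list of bile duct genes went both ways, 7 higher, 2 lower and 2 not called of 11 tested. Krt19, Epcam and Cldn7, which define bile duct cells, were too low in both fractions to be tested. Krt7, a duct keratin, was lower in IP, with 0.06, 0.04 and 0.34 CPM in IP, against 1.64, 1.56 and 0.92 CPM in the supernatant (-3.10 ± 0.67, adjusted p = 0.00132), and so was Bicc1 (-1.43 ± 0.21, adjusted p = 0.000132). Pkhd1, the gene of fibrocystin, mutated in recessive polycystic kidney disease, was instead strongly higher in IP, with 583, 562 and 582 CPM in IP, against 11.7, 12.8 and 11.7 CPM in the supernatant. The libraries of each fraction lay close together and the difference, 5.58 ± 0.04 (adjusted p = 2.79e-08), was above the medians of the 4 hepatocyte lists. The smallest difference of the genes higher in IP was that of Ehf (0.80 ± 0.23), which was not called with DESeq2 (0.75), its size factors (0.74), no filter on low counts (0.79) or scaling by total counts (0.44), or without IP B (0.71), IP C (0.70), supernatant A (0.66) or supernatant C (0.76). Prom1, at 12.4, 69.7 and 4.88 CPM in IP, against 0.63, 1.35 and 0.43 CPM in the supernatant, was highest in letter B (5.14 ± 1.21, adjusted p = 0.00211), and its difference was 3.40 without IP B. Of the red cell and platelet list only 3 of 11 genes were tested, all at under 7 CPM, and all 3 were higher in IP, among them Klf1 (5.23 ± 0.26) and the integrin gene Itga2b (0.90 ± 0.22). Itga2b was not called when scaled by total counts (0.53, adjusted p = 0.054). Globin genes, Gata1 and Pf4 were not tested or had no row.

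The level that was left in the other fraction differed between cell types. Taken as the median over the genes of a list of the IP mean in percent of the supernatant mean, it was 0.222% for Kupffer cells and macrophages, 0.260% for neutrophils, 0.895% for B and plasma cells, 1.26% for monocytes and dendritic cells and 1.88% for T and NK cells. It was 3.54% for general endothelium, 4.16% for sinusoidal endothelium, 6.58% for fibroblasts, smooth muscle and mesothelium and 6.86% for stellate cells. Neutrophils were at 0.0637% without IP B and 0.105% without IP A, B and plasma cells at 0.498% without IP C and Kupffer cells at 0.132% without IP B. The reverse measure, the supernatant mean in percent of the IP mean, was 2.54% for hepatocyte transcription factors, 2.75% for periportal genes, 3.87% for plasma proteins and 5.92% for pericentral genes. These levels also differed between letters for some cell types. For sinusoidal endothelium the medians within the letters A, B and C were 2.46%, 4.41% and 6.30%, and for stellate cells 4.25%, 8.08% and 10.2%. For fibroblasts they were 3.31%, 4.43% and 8.53% and for B cells 0.406%, 0.764% and 1.29%, so C was the highest in each of these lists. For Kupffer cells they were 0.182%, 0.290% and 0.169%, and for monocytes and dendritic cells 1.35%, 1.22% and 1.40%, with C not apart. For neutrophils they were 0.0398%, 0.120% and 0%, below Kupffer cells in each letter although the value from group means was above. Of the 6 neutrophil genes tested 2 had no count in IP, and S100a8 and others had 1 or 2. The neutrophil values are therefore near the counting floor, and their rank against Kupffer cells is uncertain. No test was made between lists, since their genes were chosen as markers and share libraries.

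**Figure D2:**
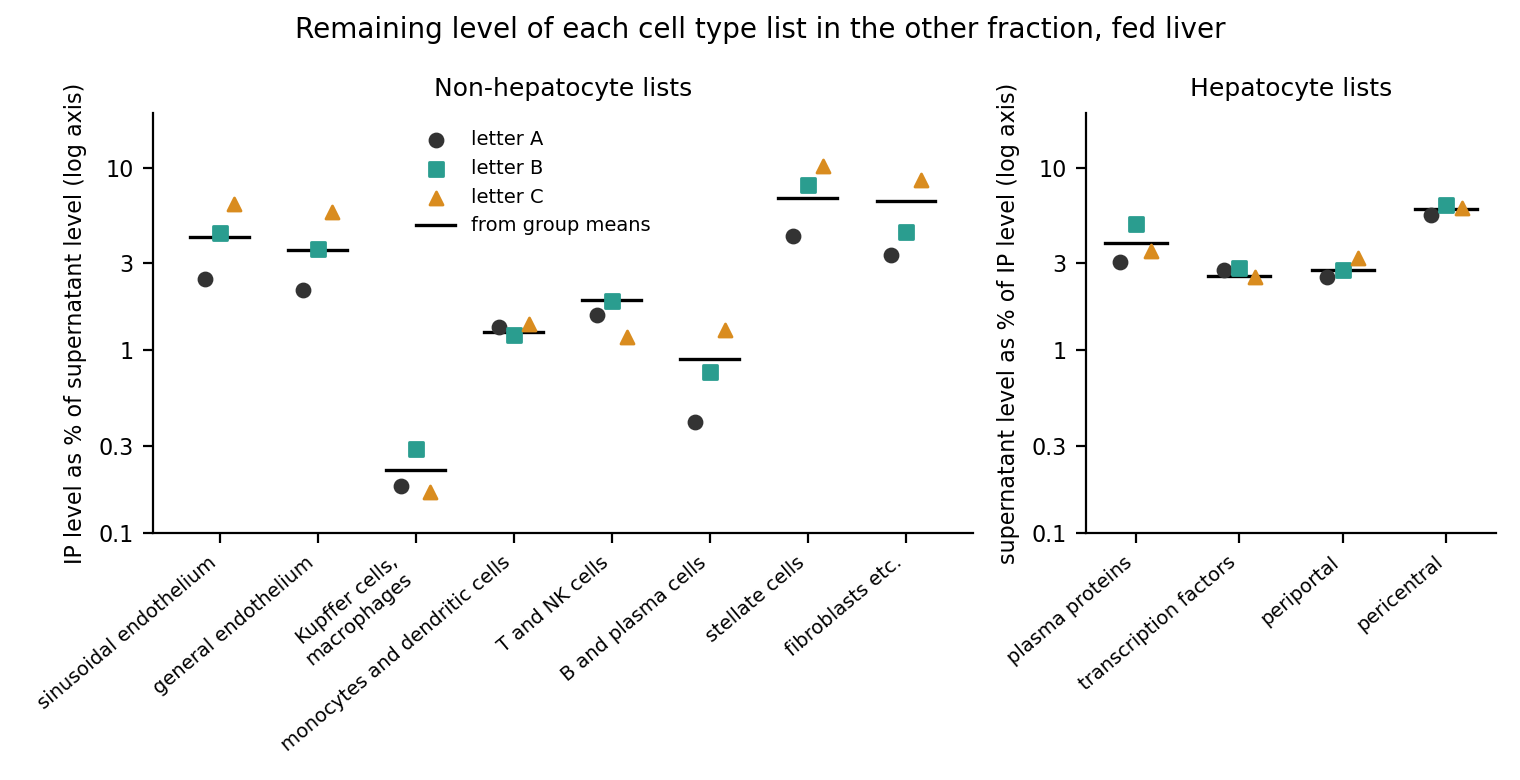
Median over the genes of each list of the IP level in percent of the supernatant level (left, non-hepatocyte lists other than neutrophils) and of the supernatant level in percent of the IP level (right, hepatocyte lists), on a log axis, for each letter (points) and from the group means (bars). The medians by letter were 0.169 to 0.290% for Kupffer cells and macrophages and 4.25 to 10.2% for stellate cells. Single genes, from group means, ran from 0.102 to 35.3% and from 4.27 to 26.1%.

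Genes of blood clotting and fibrinolysis divided between the fractions, 19 higher and 8 lower of 29 tested, with a median of 4.63. Several genes of circulating clotting factors were higher in IP. F11, the gene of factor XI, had 236, 305 and 213 CPM in IP, against 3.85, 4.66 and 3.48 CPM in the supernatant, the largest difference of the genes higher in IP (5.97 ± 0.20, adjusted p = 7.69e-08). Plg, the plasminogen gene, had the most counts, with 1466, 1339 and 1241 CPM in IP, against 31.6, 35.9 and 26.5 CPM in the supernatant (5.43 ± 0.14, adjusted p = 6.03e-08). For both genes the libraries of a fraction lay close together and the fractions lay far apart. Prothrombin (F2, 4.84 ± 0.20), factor V (F5, 5.37 ± 0.12), factor VII (F7, 5.65 ± 0.06), factor IX (F9, 4.66 ± 0.21) and antithrombin (Serpinc1, 4.94 ± 0.21) were likewise higher. F8, the gene of the cofactor missing in haemophilia A, was lower in IP, with 43.4, 42.5 and 41.3 CPM in IP, against 298, 226 and 226 CPM in the supernatant (-2.56 ± 0.13, adjusted p = 8.48e-07). Its IP level was 16.9% of its supernatant level, above the 4.16% of the sinusoidal list to which it belongs. Von Willebrand factor (Vwf, -4.67 ± 0.25), which carries factor VIII in plasma, was lower too. So were the surface regulators Tfpi (-5.15 ± 0.47), thrombomodulin (Thbd, -4.39 ± 0.23) and the protein C receptor (Procr), whereas Proc, the gene of protein C itself, was higher (5.54 ± 0.07). Procr had 1 count in IP against 269 in the supernatant, a ratio of 262 with an exact counting interval of 46.6 to 10400. The plasminogen activators Plau (-7.32 ± 0.26) and Plat and F13a1, the enzyme chain of factor XIII (-3.60 ± 0.63), were lower, with Plat at 3 counts in IP against 72 in the supernatant, a ratio of 23.4 with an exact counting interval of 7.69 to 116, while F13b, the carrier chain, was higher (5.10 ± 0.10). Tissue factor (F3) had the smallest difference of the genes higher in IP (1.80 ± 0.25). Pros1, the cofactor of protein C, was not called, with 106, 141 and 141 CPM in IP, against 102, 114 and 101 CPM in the supernatant (0.29 ± 0.15, adjusted p = 0.0872). Pros1 was called higher without IP A (0.41) and was at -0.07 when scaled by total counts.

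Complement divided in the same way, 19 higher and 8 lower of 27 tested, with a median of 2.72. C3, the central component, had the most counts, with 1140.5, 1328 and 3537 CPM in IP, against 55.4, 121 and 86.8 CPM in the supernatant. IP library C was far above A and B, and the difference was 4.51 ± 0.61 (adjusted p = 6.9e-05). Masp2, a protease of the lectin pathway, had the largest difference of the genes higher in IP (5.75 ± 0.12, adjusted p = 3.52e-08) and Hc, the fifth component, one of 5.57 ± 0.10. The subunits of the first component were split, with C1qa (-6.75 ± 0.98), C1qb (-8.65 ± 0.50) and C1qc (-7.86 ± 0.94) lower in IP and the proteases C1ra (2.65 ± 0.15) and C1s1 (4.48 ± 0.19) higher. C1qb had 0.26, 0.67 and 0.18 CPM in IP, against 120.0, 155 and 122 CPM in the supernatant. The membrane attack genes were split as well. C8a (5.43 ± 0.11), C8b (5.14 ± 0.50), C8g (4.15 ± 0.43) and C9 (5.22 ± 0.25) were higher in IP, and C7 (-3.00 ± 0.45) and C6 were lower. C6 had 17.98, 15.96 and 28.99 CPM in IP, against 616, 866 and 666 CPM in the supernatant, so that its IP libraries were all far below the supernatant (-5.09 ± 0.30, adjusted p = 8e-07). Properdin (Cfp, -4.84 ± 0.27) and the anaphylatoxin receptor C3ar1 (-8.46 ± 0.81) were lower too, and C5ar1 had 2 counts in IP against 1058 in the supernatant, a ratio of 515 with an exact counting interval of 142 to 4260. C2 had the smallest difference of the genes higher in IP (0.93 ± 0.07).

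**Figure D3:**
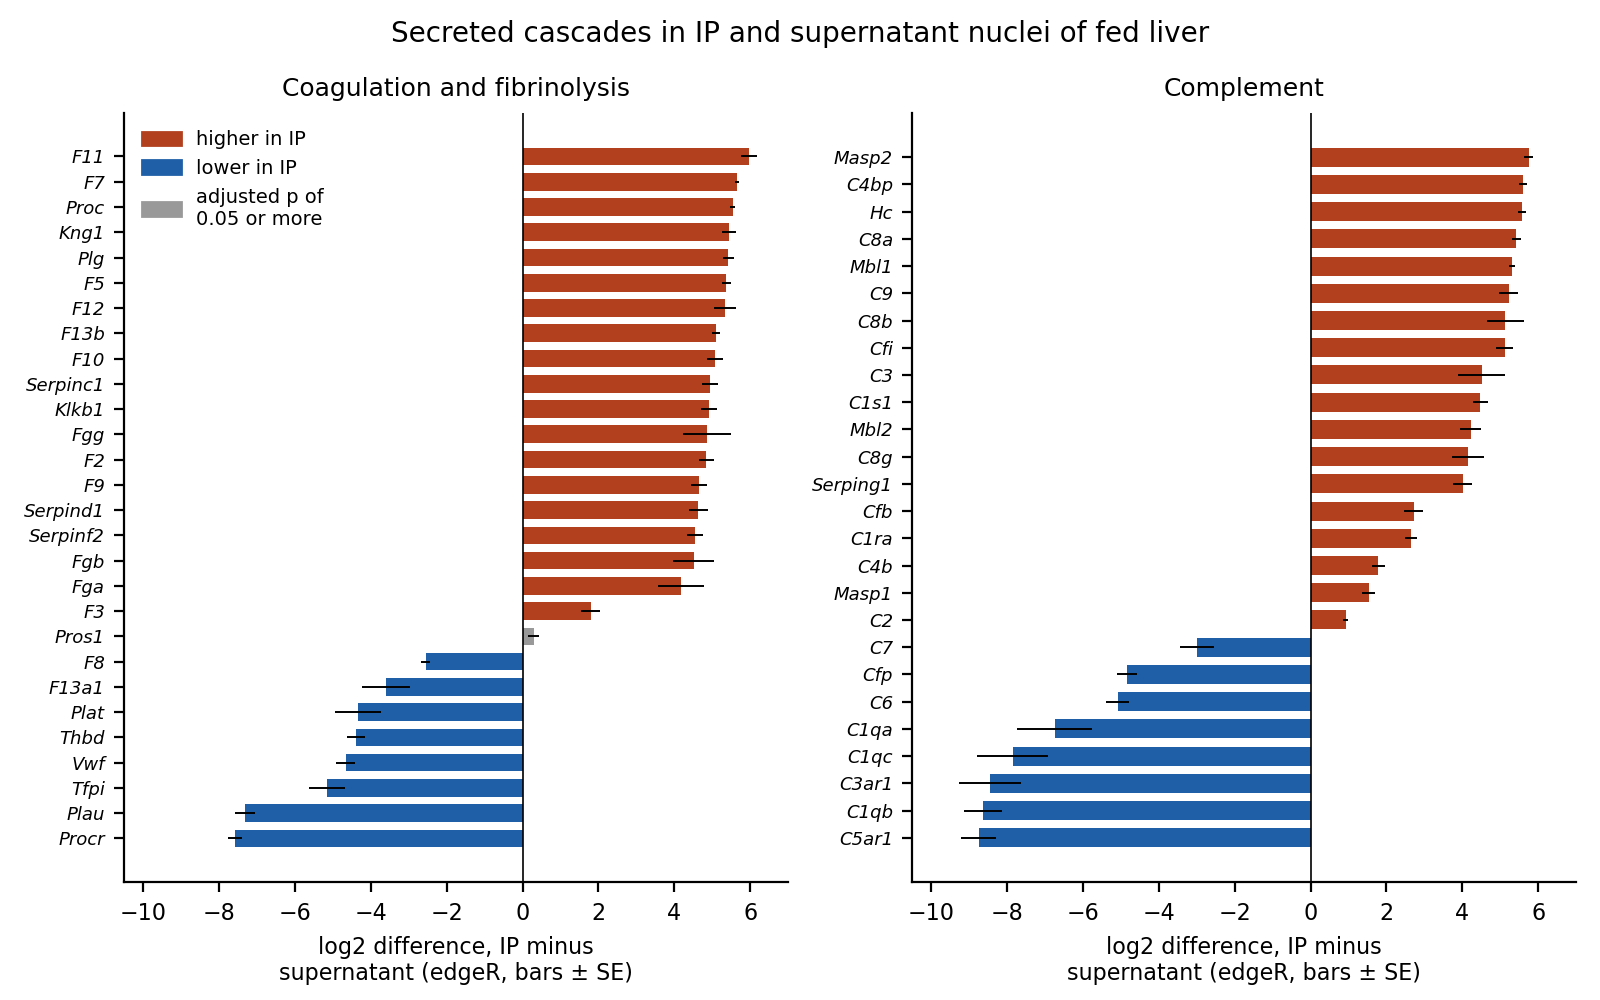
Log2 difference of IP minus supernatant nuclei of fed liver (horizontal axis, bars with SE, n = 3 libraries each) for the genes of clotting and fibrinolysis (left) and complement (right) that were tested, with 1 gene of each list not drawn. In each list as a whole 19 genes were higher and 8 lower in IP, and the fitted bars of Procr, Plat and C5ar1, with at most 3 counts in IP, depend on the prior count.

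In the WNT axis, which sets the pericentral programme, ligands were lower and receptors mostly higher in IP, 11 higher and 5 lower of 17 tested. The ligand Wnt2 had 0.28, 0.53 and 0.31 CPM in IP, against 15.9, 11.01 and 5.57 CPM in the supernatant (-4.92 ± 0.51, adjusted p = 2.05e-05), and the R-spondin Rspo3 had 4.27, 3.65 and 5.71 CPM in IP, against 96.5, 74.7 and 63.04 CPM in the supernatant (-4.09 ± 0.26, adjusted p = 8.48e-07). In both genes supernatant C was the lowest of its group and all IP libraries lay below it. Wnt9b (-2.26 ± 0.26) and Rspo1 were also lower in IP, the last with 1 count in IP against 92 in the supernatant, a ratio of 89.6 with an exact counting interval of 15.7 to 3580. On the receiving side, Lgr5 (above), Lgr4 (4.33 ± 0.24) and the ubiquitin ligases Rnf43 (5.23 ± 0.08) and Znrf3, which had the most counts of the list, were higher in IP. So was Axin2, a transcriptional target of the pathway, with 39.05, 54.3 and 57.6 CPM in IP, against 8.51, 6.06 and 7.42 CPM in the supernatant (2.78 ± 0.22, adjusted p = 3.38e-06). All 6 Frizzled receptor genes of the list were higher, by 0.84 for Fzd1 to 2.30 for Fzd8. Fzd1 was not called without supernatant A (0.72) or C (0.80). The coreceptors did not follow them, with Lrp5 lower (-1.13 ± 0.14, adjusted p = 0.000115) and Lrp6 not called, at 359.9, 325 and 317 CPM in IP, against 305, 324 and 302 CPM in the supernatant (0.10 ± 0.06, adjusted p = 0.416). Scaled by total counts Lrp6 was at -0.27.

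BMP ligands act on hepatocytes to switch on hepcidin. Of 20 genes of this axis tested 7 were higher and 9 lower, close to the shares over all genes, with a median of -0.41. Bmp6, an endothelial ligand induced by iron, had 7.58, 7.4 and 6.61 CPM in IP, against 337, 247 and 122 CPM in the supernatant (-5.03 ± 0.44, adjusted p = 4.51e-06), with supernatant C the lowest of its group. The ligand Bmp4 (-0.84) and the BMP target Id1 (1.08) were among the 4 not called. Bmp4 was called lower when scaled by total counts (-1.21) and without IP B (-1.06) or supernatant C (-1.10), and Id1 was called higher without IP A (1.48). Bmp2 (-4.40 ± 0.34), Bmp5 (-4.03 ± 0.24), Bmp10 (-4.02 ± 0.44) and Gdf2, the gene of BMP9 (-3.51 ± 0.33), were lower like Bmp6. The endothelial receptor gene Acvrl1, which had the largest difference (-6.67 ± 0.35), and its coreceptor Eng (-4.68 ± 0.36) were lower as well. Hamp, the gene of hepcidin, had 261, 377 and 523 CPM in IP, against 7.75, 14.98 and 10.5 CPM in the supernatant (5.13 ± 0.40, adjusted p = 2.68e-06), and IP C was the highest. Tfr2, a sensor of transferrin iron, had 304, 293 and 318 CPM in IP, against 5.36, 5.61 and 5.27 CPM in the supernatant (5.81 ± 0.04, adjusted p = 2.79e-08). Both fractions were tight in Tfr2. Tmprss6 (5.59 ± 0.21), which cleaves the hemojuvelin coreceptor, and the hemojuvelin gene itself, listed as Hfe2 (5.30 ± 0.38), were higher. The receptors Bmpr1a (1.28 ± 0.03) and Acvr1 (1.41 ± 0.17) and the hemojuvelin partner Neo1 (2.94 ± 0.14) were higher in IP, Bmpr2 was lower (-0.83 ± 0.10), and Smad6, an inhibitor induced by BMP that had the most counts in the supernatant, was lower (-1.57 ± 0.15).

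Other ligands and receptors were also found on opposite sides, with 13 higher and 30 lower in IP of 50 tested and a median of -1.51. Hgf, the hepatocyte growth factor gene, had 8.42, 6.55 and 13.2 CPM in IP, against 254, 199 and 205 CPM in the supernatant (-4.54 ± 0.31, adjusted p = 1.22e-06), and its receptor gene Met had 332, 390.4 and 237 CPM in IP, against 8.23, 10.6 and 6.87 CPM in the supernatant (5.22 ± 0.28, adjusted p = 4.24e-07). The ligand was thus on the supernatant side and the receptor on the IP side in every library. Vegfa lay the other way round, at 640.4, 683 and 661 CPM in IP, against 17.5, 15.7 and 13.2 CPM in the supernatant (5.42 ± 0.12, adjusted p = 4.42e-08). Its receptors Kdr (-4.63 ± 0.33) and Flt1 (-4.62 ± 0.30) were lower in IP, as was the related receptor gene Flt4 (-4.58 ± 0.41). Gas6 was higher in IP (1.66 ± 0.18, adjusted p = 2.43e-05), and its receptors Axl and Mertk were lower. Axl had 0.89, 1.34 and 1.37 CPM in IP, against 406, 382 and 515 CPM in the supernatant, the largest difference of the list (-8.52 ± 0.23, adjusted p = 4.28e-08). For the FGF hormones, the receptor Fgfr4 (5.82 ± 0.17) and its partner Klb (5.77 ± 0.32) were higher in IP, as was the hormone gene Fgf21, with 62 counts in IP against 1 in the supernatant, a ratio of 63.6 with an exact counting interval of 11 to 2550. The thrombopoietin gene Thpo was higher (5.78 ± 0.30). Fgf1 (3.64 ± 0.13), Tgfa (2.43 ± 0.25), Cxcl12 (2.08 ± 0.43), Egf (1.48 ± 0.15) and the receptor Erbb3 (4.54 ± 0.13) were higher too. Both Kit (-4.54 ± 0.50) and its ligand Kitl (-5.17 ± 0.54) were lower in IP, and so were both Csf1 (-1.64 ± 0.30) and its receptor Csf1r (-8.41 ± 0.34). Igf1r, at 9.29, 9.94 and 14.3 CPM in IP, against 239, 174 and 200.2 CPM in the supernatant, was lower (-4.19 ± 0.23, adjusted p = 5.26e-07). Its ligand gene Igf1 was not called, with 459.9, 789.8 and 3033 CPM in IP, against 454, 701 and 677 CPM in the supernatant (1.23 ± 0.83, adjusted p = 0.102), and there IP C was far above all others. Igf1 was called higher without IP A (1.64). Pdgfc had the smallest difference of the genes lower in IP (-0.81 ± 0.38) and was not called without IP A (-0.73), IP C (-0.78) or supernatant C (-0.38).

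**Figure D4:**
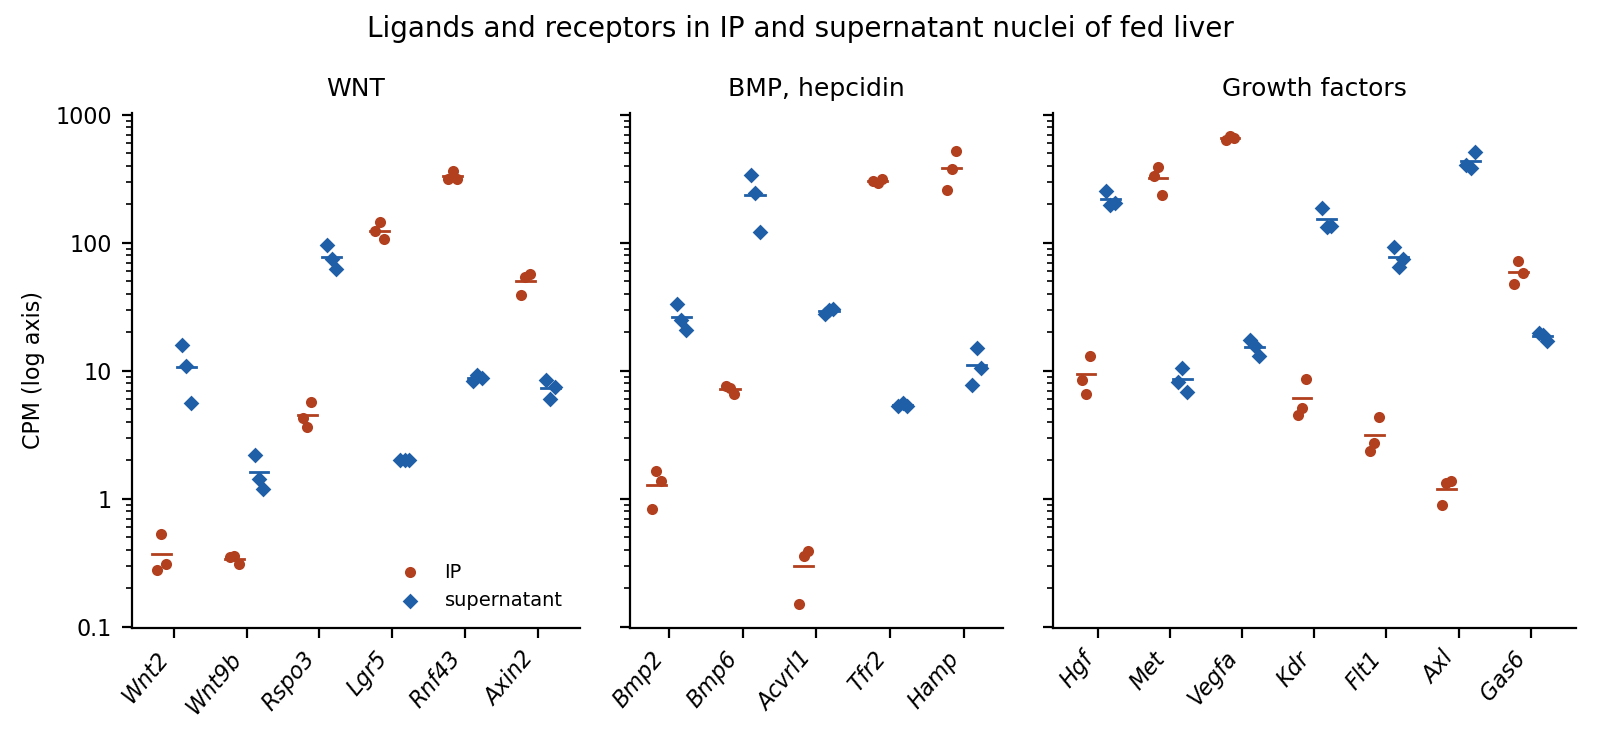
CPM per library (vertical log axis) of ligand, receptor and target genes in IP (left of each pair) and supernatant (right of each pair) of fed liver, with bars at the mean of 3 libraries. Hgf, Wnt2, Rspo3, Bmp2 and Bmp6 are lower in IP and Met, Lgr5, Rnf43, Hamp and Tfr2 higher, while Vegfa and Gas6 are higher and their receptors Kdr, Flt1 and Axl lower.

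Hormone and cytokine receptors were even in number, 13 higher and 12 lower of 27 tested, with a median of 0.20 that became -0.17 when scaled by total counts. Metabolic hormone receptors were among those higher in IP. Ghr, the growth hormone receptor, had the most counts, with 8752, 7809.7 and 10177 CPM in IP, against 244, 210.1 and 255 CPM in the supernatant (5.24 ± 0.14, adjusted p = 8.1e-08), and the glucagon receptor Gcgr had 243, 253 and 228 CPM in IP, against 12.9, 8.23 and 8.13 CPM in the supernatant (4.63 ± 0.22, adjusted p = 2.68e-07). Of the genes higher in IP, Prlr had the largest difference (5.68 ± 0.63) and the thyroid hormone receptor Thrb the smallest (1.23 ± 0.19). The insulin receptor Insr was higher by 1.42 ± 0.05 (adjusted p = 6.11e-06). Cytokine receptors made up most of those lower, with Il10ra (-8.92 ± 0.31), Il10rb (-4.56 ± 0.23), Osmr (-4.57 ± 0.35), Ifngr1 (-3.09 ± 0.20), Ifnar1 (-1.27 ± 0.13), Ifnar2 (-1.84 ± 0.14), Il6ra (-1.04 ± 0.05), Tnfrsf1a (-0.81 ± 0.14) and Tnfrsf1b (-1.83 ± 0.30). Not every cytokine receptor of the list went this way. Lifr was higher in IP (2.70 ± 0.59, adjusted p = 0.000845), and Il6st and Il1r1 were not called lower. The leptin receptor Lepr (-2.49 ± 0.38) and the adiponectin receptor Adipor1 (-0.98 ± 0.09) were lower, whereas Adipor2, the other adiponectin receptor, was higher (3.96 ± 0.14).

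Of 20 iron genes tested 8 were higher and 7 lower, close to the shares over all genes, with a median of 0.22 that became -0.15 when scaled by total counts. Carriers made for plasma, Trf (3.24 ± 0.21), Hpx (3.91 ± 0.44) and Cp (3.44 ± 0.20), and the importer Slc39a14 (4.62 ± 0.13) were higher in IP, and Steap3 had the smallest difference among them (1.99 ± 0.48). The iron exporter Slc40a1 (ferroportin) was lower, with 89.8, 87.9 and 109.8 CPM in IP, against 892, 1149.9 and 999 CPM in the supernatant (-3.40 ± 0.15, adjusted p = 3.49e-07). The haem oxygenase gene Hmox1 had 4.05, 5.17 and 3.45 CPM in IP, against 62.4, 62.4 and 62.8 CPM in the supernatant (-3.90 ± 0.17, adjusted p = 1.83e-07). The phagosomal transporter Slc11a1 (-8.18 ± 0.24), the haemoglobin receptor Cd163 (-9.24 ± 0.34) and Spic (-9.59 ± 0.29), a factor of macrophages that recycle red cells, were also lower, as were Blvrb (-1.34 ± 0.07) and Fth1 (-0.69 ± 0.11). Lrp1, a receptor for haem bound to hemopexin, had the most counts and was not called (0.11, or -0.26 when scaled by total counts), and it was at -0.03 without IP C and -0.06 without supernatant B. Tfrc, the transferrin receptor, was not called either (-0.14), but was called lower when scaled by total counts (-0.52, adjusted p = 0.00773). Of 15 retinoid genes 8 were higher and 6 lower (median 0.63). Lrat, which esterifies retinol for storage in stellate cells, had 2.01, 2.41 and 1.5 CPM in IP, against 39.2, 31.3 and 11.8 CPM in the supernatant (-3.81 ± 0.56, adjusted p = 7.71e-05), and the plasma carrier Rbp4 had 627, 611 and 501 CPM in IP, against 16.9, 23.1 and 13.5 CPM in the supernatant (5.02 ± 0.25, adjusted p = 3.19e-07). Ttr, whose product binds Rbp4 in plasma, had the most counts of the list (4.72 ± 0.29). Rdh16 had the largest difference (5.92 ± 0.20) and Rdh10 the smallest (0.63 ± 0.08) of the genes higher in IP, while Bco1 (-0.96 ± 0.23), Rara (-0.50 ± 0.21) and Rarb (-0.76 ± 0.33) were lower. Rara was not called without IP A (-0.48), IP C (-0.41), supernatant A (-0.40) or supernatant C (-0.46), and Rarb not without supernatant A (-0.50). Cyp26b1, which degrades retinoic acid, was lower but varied widely between mice, with 1.39, 0.71 and 0.13 CPM in IP, against 46.9, 14.98 and 1.02 CPM in the supernatant (-4.77 ± 1.84, adjusted p = 0.00819).

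Lipid exchange genes were higher in IP for 13 and lower for 6 of 22 tested (median 1.41). Lipc, hepatic lipase, had 2293, 2425 and 1557 CPM in IP, against 42.03, 38.5 and 26.3 CPM in the supernatant (5.88 ± 0.29, adjusted p = 3.46e-07), and Lpl, lipoprotein lipase, had 0.26, 0.40 and 0.47 CPM in IP, against 37.9, 137 and 197 CPM in the supernatant (-8.38 ± 0.75, adjusted p = 1.22e-05). Every IP library was above 1500 CPM for Lipc and below 1 CPM for Lpl. Gpihbp1, which holds lipoprotein lipase on capillary walls (-4.73 ± 0.29), the sterol exporter Abcg1 (-7.17 ± 0.41), the scavenger receptor gene Stab1 (-5.48 ± 0.35), Pltp (-1.81 ± 0.33) and Cd36 (-0.86 ± 0.44) were also lower. The exporter Abca1 had the smallest difference of the genes higher in IP (0.44 ± 0.12). It was not called without IP C (0.34), supernatant A (0.41) or supernatant B (0.39). Cd36 was not called without IP B (-0.81) or without any 1 supernatant library (-0.76 to -0.92), and was at -1.33 without IP A. Innate immune sensors were lower in IP for 19 and higher for 3 of 22 (median -5.99). Nod1 had the most counts (-2.69 ± 0.21), Tlr7 the largest difference (-9.95 ± 0.47) and Ifih1 the smallest (-0.81 ± 0.25). The flagellin receptor Tlr5, at 55.6, 61.9 and 53.8 CPM in IP, against 2.59, 4.21 and 1.72 CPM in the supernatant (4.32 ± 0.37, adjusted p = 2.56e-06), was the exception among the Toll-like receptors, while Tlr4, the receptor for lipopolysaccharide, had 0.11, 0.13 and 0.13 CPM in IP, against 45.2, 59.7 and 42.7 CPM in the supernatant (-8.62 ± 0.16, adjusted p = 4.2e-08). Lbp, the plasma protein that binds lipopolysaccharide (2.81 ± 0.27), and Mavs (1.38 ± 0.19) were higher as well.

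Sun1 encodes an inner nuclear membrane protein that is the base of the tag in some INTACT lines. Whether the tag of these mice is built on it is not given in the sources used here. Sun1 lies on chromosome 5 from 139200637 to 139249839 (mm10, plus strand). It had 189, 188 and 128 CPM in IP, against 53.1, 53.8 and 48.5 CPM in the supernatant. All IP libraries were above all supernatant libraries (1.70 ± 0.19, adjusted p = 2.49e-05). The counts cover the whole gene, and endogenous and any tagged transcripts were not told apart. Of 17 nuclear envelope genes 6 were higher and 4 lower, with a median of -0.04. Scaled by total counts they were 4 and 7, with a median of -0.41, and Syne2 (0.45) and Nup210 (0.03) were not called. Lmna, a lamin of differentiated cells, had the largest difference (2.66 ± 0.14), Syne2 the most counts (0.82 ± 0.22) and Nup210 the smallest difference (0.39 ± 0.15) of the genes higher in IP. Nup210 was also not called with DESeq2 (0.34) or its size factors (0.34), or without IP B (0.28), IP C (0.36), supernatant A (0.32) or supernatant B (0.41). Syne1 (-4.05 ± 0.27), the lamin B receptor Lbr (-1.21 ± 0.07), Tmpo (-0.66 ± 0.14) and Tor1aip1 (-0.29 ± 0.08) were lower. Tor1aip1 was not called with the letter as a block (adjusted p = 0.0527) or without any 1 library other than IP C (-0.23 to -0.33). Of 22 genes of general transcription and splicing or often used as references 7 were higher and 7 lower, a smaller share each way than over all genes (median 0.14). Scaled by total counts they were 3 and 10, with a median of -0.22. Actb, at 15.4, 22.3 and 18.6 CPM in IP, against 135, 175 and 128 CPM in the supernatant, was lower in IP (-2.97 ± 0.21, adjusted p = 1.68e-06), as were Gusb (-3.00 ± 0.13), Hprt (-1.56 ± 0.14), B2m (-0.98 ± 0.16), Rplp0 (-0.66 ± 0.19), Ywhaz (-0.52 ± 0.11) and Sf3b1 (-0.48 ± 0.20). Polr2b had the smallest difference of those higher (0.36 ± 0.13) and Gapdh was not called (0.78). Gapdh was called higher with the letter as a block (0.71, adjusted p = 0.00824) and without IP C (1.10). Polr2b was not called without any 1 library other than IP B (0.29 to 0.39), and Sf3b1 not without IP B (-0.33), supernatant A (-0.49) or supernatant C (-0.38). Polr2a, the large subunit of RNA polymerase II, had 106, 68.4 and 99.1 CPM in IP, against 109.5, 83.02 and 106 CPM in the supernatant (-0.13 ± 0.23, adjusted p = 0.55), or 0.03 without IP B. Med13, with the most counts, was not called (0.13, or -0.23 when scaled by total counts).

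Cell cycle genes were lower in IP for 16 of 18, with a median of -3.03. Mki67, the proliferation antigen, had 2.1, 4.86 and 2.83 CPM in IP, against 57.7, 73.9 and 46.3 CPM in the supernatant (-4.23 ± 0.40, adjusted p = 5.44e-06). Differences of the genes called lower ran from -4.99 for Bub1 to -1.13 for Pcna. The other 2 genes were not called, and the highest value of the list was 0.11. Of 23 immediate early genes, which respond to stress during tissue handling among other stimuli, 14 were lower and 2 higher (median -1.98). The flow-responsive endothelial factor Klf2 had 0.39, 0.31 and 0.39 CPM in IP, against 25.2, 21.6 and 21.4 CPM in the supernatant (-5.93 ± 0.12, adjusted p = 5.42e-08), Klf6 had the most counts (-2.68 ± 0.24), and Fosl2 the smallest difference of the genes lower in IP (-0.79 ± 0.29). Egr2 had 1 count in IP against 98 in the supernatant, a ratio of 95.5 with an exact counting interval of 16.7 to 3810. Fos was lower (-3.46 ± 0.76, adjusted p = 0.000635), Zfp36 (1.55 ± 0.31) and Maff (0.86 ± 0.20) were higher. Maff was not called without IP A (0.67) or supernatant C (0.77). Of 20 long noncoding RNAs looked for, Snhg11 alone has a row in the table (4.85 ± 0.20).

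Neighbouring genes were compared at loci known for liver or myeloid genes. Around albumin on chromosome 5, Alb, Afm (5.67 ± 0.04) and Rassf6 (5.38 ± 0.28) were strongly higher in IP and Ankrd17 by 0.64 ± 0.09, while Afp, the fetal relative of Alb, was at 0.50, 0.40 and 0.41 CPM in IP, against 0.30, 0.40 and 0.43 CPM in the supernatant and was not called (0.24 ± 0.16, adjusted p = 0.508, or -0.13 when scaled by total counts). At the fibrinogen locus on chromosome 3, Fga (4.17 ± 0.61), Fgb (4.52 ± 0.54) and Fgg (4.86 ± 0.64) were higher, Plrg1 was just past the threshold (0.32 ± 0.04, adjusted p = 0.0408), and Lrat beside them was lower (-3.81 ± 0.56). Plrg1 was not called with the letter as a block (adjusted p = 0.0568) or without any 1 library other than IP B (0.27 to 0.34), and was at -0.04 when scaled by total counts. At the Apoa1 locus on chromosome 9 all 7 genes were higher (median 1.96), from Apoa5 (5.03 ± 0.22) to Bud13 (0.68 ± 0.12), with Sik3 (1.47 ± 0.08) having the most counts. Scaled by total counts 5 were called, without Apoa4 (1.0) and Bud13 (0.31, adjusted p = 0.1). From Ahsg to Kng1 on chromosome 16, Kng2 (5.81 ± 0.09) had the largest difference of 6 genes higher and Eif4a2 the smallest (0.59 ± 0.15), and Rfc4 was lower (-0.66 ± 0.21). Rfc4 was not called without IP A (-0.48) or without any 1 supernatant library (-0.65 to -0.67). Around the C1q genes on chromosome 4, Cdc42 (-1.65 ± 0.08) and Wnt4 (-3.50 ± 0.44) were lower as well. All 12 C-type lectin genes tested on chromosome 6 were lower (median -7.97). Clec9a, of the dendritic cells that present dead cell antigens, had the most counts in the supernatant, with 0.91, 0.76 and 1.17 CPM in IP, against 201, 241 and 212 CPM in the supernatant (-7.82 ± 0.19, adjusted p = 3.34e-08), and Clec1a had the smallest difference (-4.85 ± 0.44). Clec4b1 had 2 counts in IP against 2255 in the supernatant, a ratio of 1100 with an exact counting interval of 304 to 9080.

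Across all genes, the 10 with the largest positive difference that had at least 1 CPM in IP and no overlap between libraries were Gpr12, Ptgds, Hypm, Bglap3, Apoc4-apoc2, Plk5, Golt1a, Chst13, 4930557A04Rik and Pdilt. Gpr12 had 148 counts in IP and none in the supernatant, at least 50.6-fold against a floor of 3 counts over the group. Golt1a, a Golgi transport gene, had 48.5, 43.5 and 41.3 CPM in IP, against 0.60, 0.87 and 0.18 CPM in the supernatant (6.29 ± 0.59, adjusted p = 9.71e-07), and Chst13, a chondroitin sulfotransferase, had 43.8, 77.6 and 34.3 CPM in IP, against 0.78, 0.74 and 0.55 CPM in the supernatant (6.21 ± 0.38, adjusted p = 1.32e-06). Ptgds, a prostaglandin D synthase, had 12.6, 16 and 12.8 CPM in IP, against 0.08, 0.13 and 0.15 CPM in the supernatant (6.82 ± 0.23, adjusted p = 1.29e-07). Of these genes Golt1a, Chst13 and Pdilt (6.07 ± 0.46) had over 40 CPM in IP on average. Hypm and 4930557A04Rik lie within 3 kb of each other on chromosome X, and Apoc4-apoc2 is a read-through transcript over a pair of neighbouring genes, so that its counting is uncertain. The 10 with the largest negative difference were Xlr, Cnpy1, B430306N03Rik, Slc2a6, Trim30b, Bend6, Tnf, Alox5, Tlr11 and 1700011I03Rik. Of these B430306N03Rik had 3 counts in IP against 10769 in the supernatant, a ratio of 3500 with an exact counting interval of 1200 to 17000, and Bend6 had 1 against 2487, a ratio of 2420 with an interval of 435 to 95800. The other 8 had no count in IP. The cytokine gene Tnf was at least 213-fold lower and Alox5, the first enzyme of leukotriene synthesis, at least 205-fold lower, against the floor of 3 counts. In all, 120 genes had no count in any IP library and 5 had none in any supernatant library.

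Libraries of both fractions gave many counts to the same long genes. Cmss1, Cdk8, Camk1d and Gphn were among the 10 genes with the most counts in both, and Cmss1 had 10786, 9385 and 11282 CPM in IP, against 17947, 13198 and 21603 CPM in the supernatant (-0.75 ± 0.22, adjusted p = 0.00949). Camk1d (0.04 ± 0.12) and Gphn (0.11 ± 0.18) were not called, and both were below 0 when scaled by total counts (-0.33 and -0.26) and without supernatant B (-0.01 and -0.04). No source used here says how reads in repeated sequence were counted, and these levels are uncertain, and a gene on the other strand, Filip1l, lies within Cmss1. The others in IP were Dpyd, Ghr, Cps1, Immp2l, Adk and Cyp2b9. Dpyd, the pyrimidine-degrading enzyme, had 12443, 10481 and 9098 CPM in IP, against 222, 192 and 181 CPM in the supernatant. Cyp2b9, a cytochrome with near-identical relatives, had 6752, 4931 and 3478 CPM in IP, against 115, 89.7 and 57.7 CPM in the supernatant. The others in the supernatant were Lars2, 1700112E06Rik, Zeb2, Macf1, Ptprj and Ptprm. Zeb2, a transcription factor of stellate and myeloid cells and endothelium, had 22.9, 22.4 and 35.8 CPM in IP, against 2681, 3901 and 2852 CPM in the supernatant (-6.86 ± 0.28, adjusted p = 1.93e-07). Per kb of gene, the order was another one. The highest level in IP was that of Hamp, with 235 CPM per kb in IP and 6.72 CPM per kb in the supernatant, followed by Ahsg with 210.0 CPM per kb in IP and 6.77 CPM per kb in the supernatant. Among genes lower in IP, Clec4f, the Kupffer cell lectin, reached 0.15 CPM per kb in IP and 88.1 CPM per kb in the supernatant, and Slc40a1 5.47 CPM per kb in IP and 57.8 CPM per kb in the supernatant.

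Some hepatocyte genes differed between IP libraries, and supernatant libraries of the same letter often differed in the same way. Of the genes at least 3 higher in IP, 275 had a highest IP library of at least 2 times the lowest. The letter highest in IP was also the highest in the supernatant for 191 of them (69.5%), and the lowest was the same for 195 (70.9%). IP C was the lowest of its group in 184 of the 275. Of the genes at least 3 lower in IP, 345 varied that much between supernatant libraries. The highest letter was shared with IP in 122 (35.4%) and the lowest in 124 (35.9%). A letter picked at random among 3 would match about as often, so these genes showed hardly any sharing of letters. Letters were paired because same-letter libraries deviated together in these data, so shared letters are no separate support for the pairing. Unrelated letters would also match in part of the genes. Egfr had 694, 751 and 4528 CPM in IP, against 48.5, 47.7 and 98.5 CPM in the supernatant, and Onecut1, a hepatocyte factor, had 126, 179 and 685 CPM in IP, against 3.12, 4.53 and 11.2 CPM in the supernatant. In both genes C was the highest of both fractions. The prolactin receptor gene Prlr had 1370.3, 1718 and 4069 CPM in IP, against 28.1, 37.5 and 73.9 CPM in the supernatant, again with C the highest in both. Other genes, chosen after their values were seen, were the lowest in C of both fractions. Pck1 had 1738, 854 and 251 CPM in IP, against 37.8, 21.5 and 12.3 CPM in the supernatant, and G6pc had 1152, 803 and 232 CPM in IP, against 27.6, 19.4 and 6.13 CPM in the supernatant. Etnppl, a phospholyase gene, had 169, 167 and 35.1 CPM in IP, against 4.53, 4.79 and 1.85 CPM in the supernatant. Letter B was the highest for fibrinogen, with 248, 720.4 and 345 CPM in IP, against 14.7, 37.98 and 20.3 CPM in the supernatant for Fga and 259.7, 712 and 352 CPM in IP, against 8.51, 25.7 and 11.3 CPM in the supernatant for Fgg. The differences between fractions in these genes, 4.94 ± 0.95 for Egfr, 5.31 ± 0.94 for Pck1 and 4.17 ± 0.61 for Fga, have a large SE, which takes libraries as independent.

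**Figure D5:**
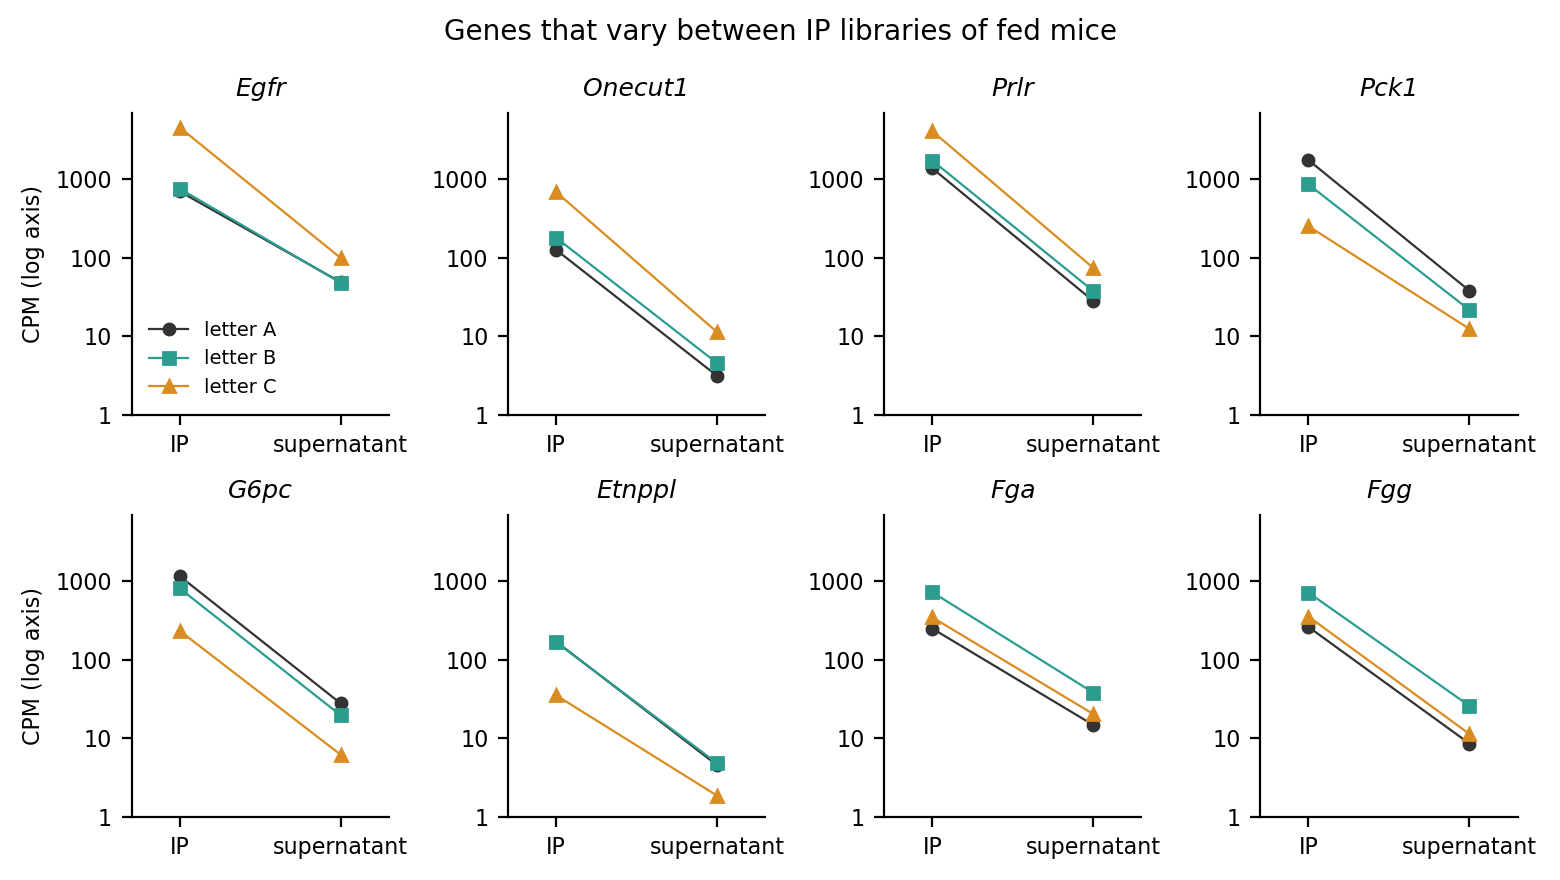
CPM (vertical log axis) of 8 hepatocyte genes in IP and supernatant of fed liver, with lines that join the libraries of the same column letter. The order of the letters in IP is kept in the supernatant in most panels, with C the highest for Egfr, Onecut1 and Prlr and B the highest for Fga and Fgg.

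The letters in front of genes were counted over 14382 promoters of 250 bases that matched the start of a gene in the table, of which 9924 belong to genes tested. Shares are given with 95% Wilson intervals, motifs were read on both strands and no motif holds another. The HNF1 motif, searched as GTTAATNAT, stood in 3.83% (2.78 to 5.26) of promoters of genes at least 3 higher in IP, in 0.219% (0.0852 to 0.562) of those at least 3 lower, in 0.584% of all genes tested and in 0.737% of all promoters. The PU.1 motif, searched as GAGGAAGT, stood in 1.38% (0.811 to 2.35) of the higher and 4.32% (3.48 to 5.36) of the lower set, beside 2.56% of all tested and 2.33% of all promoters. The C/EBP motif, TTGCNNAA, stood in 12.9% and 8.59% of the higher and lower sets, beside 7.95% of all tested and 9.09% of all promoters. The GATA motif, AGATAA, stood in 9.48% and 8.16%, beside 6.13% and 8.77%, and the TATA box, TATAAA, in 12.7% and 9.41%, beside 6.86% and 12%. The E-box, CACGTG, stood in 7.24% and 5.69%, beside 8.10% and 7.02%. Promoters of 3 genes of the macrophage and sinusoidal endothelial lists, Mertk at chr2:128698665-128698914 (plus strand), Stab2 at chr10:87007943-87008192 (minus) and Mrc1 at chr2:14229164-14229413 (plus), are printed for comparison and hold none of the 6 motifs. The start of Mertk in RefSeq lies 82 bases from that in the count table.
Mertk: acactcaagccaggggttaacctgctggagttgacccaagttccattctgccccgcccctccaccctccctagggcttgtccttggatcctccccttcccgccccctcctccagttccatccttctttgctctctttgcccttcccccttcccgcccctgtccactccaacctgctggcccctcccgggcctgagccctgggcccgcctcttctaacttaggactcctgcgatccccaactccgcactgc
Stab2: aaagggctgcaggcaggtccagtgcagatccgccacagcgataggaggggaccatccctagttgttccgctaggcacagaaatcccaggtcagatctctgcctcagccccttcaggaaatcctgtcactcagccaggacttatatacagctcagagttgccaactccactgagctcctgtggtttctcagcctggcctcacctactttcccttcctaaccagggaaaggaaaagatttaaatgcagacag
Mrc1: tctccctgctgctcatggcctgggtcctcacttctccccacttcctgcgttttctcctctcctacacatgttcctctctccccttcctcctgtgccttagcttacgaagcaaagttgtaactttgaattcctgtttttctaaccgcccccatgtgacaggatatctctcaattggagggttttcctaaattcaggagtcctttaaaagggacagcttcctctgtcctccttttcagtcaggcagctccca

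The same comparison in the 3 fasted mice gave 5621 genes (40.1%) higher and 5656 (40.4%) lower in IP of 14000 tested. Of the 5169 genes higher in fed mice that were tested in both states, 88.1% were also higher in fasted mice (81.9% of those higher in fasted mice), and 91.7% of the 5311 lower genes were also lower (88.3% of the fasted list). The difference between the states was tested as an interaction and called 1367 of 14322 genes (9.54%), 835 with a higher and 532 with a lower IP minus supernatant difference in fed mice. This count depends on the tool and on several single libraries. It was 1413 higher and 927 lower with DESeq2, 483 and 310 without fasted IP A, 450 and 321 without fasted supernatant A, 600 and 320 without fasted supernatant B, 486 and 366 without fasted supernatant C, 623 and 347 without fed supernatant B and 488 and 328 without fed supernatant C. The opposite direction was called in fed and in fasted mice for 92 genes. The cell types kept their order in fasted mice, with a median log2 difference of 3.80 for plasma proteins, -4.31 for stellate cells, -5.68 for sinusoidal endothelium and -8.73 for Kupffer cells. The level of sinusoidal endothelial genes left in IP was 4.16% in fed and 1.90% in fasted mice, and by letter the fed values of 2.46, 4.41 and 6.30% overlapped the fasted values of 2.53, 2.74 and 0.915%. The interaction called 2 of the 20 genes of that list and 1 of the 19 Kupffer cell genes. Those shares stand beside 9.54% over all genes.

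Some named genes differed between the fed and the fasted state. Il6ra was lower in IP of fed mice (-1.04 ± 0.05) and differed by 0.46 ± 0.14 in fasted mice, a difference of -1.5 ± 0.15 between the states (adjusted p = 0.000651). Lrp5 was lower in fed mice (-1.13 ± 0.14) and at 0.09 ± 0.09 in fasted mice (adjusted p = 0.00224 for the difference). Lifr, the receptor of leukaemia inhibitory factor, had 864, 889 and 2806 CPM in IP, against 291, 198 and 211 CPM in the supernatant in fed mice, so the fed difference of 2.70 ± 0.59 was largest in letter C, and the fasted one was -0.81 ± 0.18 (adjusted p = 0.0035). Pnpla3, a lipid droplet gene that follows feeding, had 117, 302 and 30.6 CPM in IP, against 10.2, 12.4 and 7.18 CPM in the supernatant in fed mice, with a fed difference of 3.91 ± 0.98 and a fasted one of -3.05 ± 0.40 (adjusted p = 0.00188). The lipid transfer gene Pltp was lower in both states, at -1.81 ± 0.33 in fed and -4.50 ± 0.36 in fasted mice (adjusted p = 0.00287).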

How the data were processed

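RNA of bead-bound and supernatant nuclei was made into stranded libraries from 50 to 100 ng of total RNA without poly-A selection and read as 50 bp pairs, per the labels' protocols. The deposited table holds raw read counts per gene. STAR 2.4.2a, DESeq2 1.24.0 and mm10 are named in the submitters' processing notes, and the counting tool and strand setting are not given in the sources used here. The table's gene length equals the span from start to end for all 20105 genes, so CPM per kb is per kb of gene span. Another 6 sample columns of the table match no sample used here and were left out.

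From these counts, genes were kept by filterByExpr, scaled by TMM and tested with edgeR 4.0.16 (R 4.3.3) by quasi-likelihood without a block, within the fed groups, with Benjamini-Hochberg adjustment over all genes tested at 0.05. The script was tested on simulated data. The SE takes libraries as independent. Titles give IP and supernatant the same mice, while column letters stand in no label. Same-letter libraries deviated together (r = 0.169, 0.403 and 0.425 over 8659 genes, against -0.357 to 0.0124 for different letters), so the letters were taken to pair, and the block is an alternative. Deviations were taken from the mean of the 3 libraries of a group. Positive values for the same letter therefore push down those for different letters, and the value for A was the weakest. DESeq2 1.42.0, other scalings and filters and leaving out each library were also run.

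Gene lists and members were chosen with earlier results of these data known. Genes were named by list (most counts, largest and smallest difference, members of the other direction and members of the role described), by the 10 largest differences and the 10 highest levels. Some genes that this rule names are not reported here. A few others were chosen after their values were seen, as were those that vary between mice. Ratios of few counts, floors of 3 counts and 95% intervals cover counting error only.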

Additional observations from a re-analysis of the deposited data

Results flagged for a closer look

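For 27 of the 297 named genes, the difference between IP and supernatant itself differed between fed and fasted mice. The test was the interaction term of an edgeR quasi-likelihood fit with Benjamini-Hochberg adjustment over 14322 genes (n = 3 libraries in each of 4 groups). Over all genes 9.54% passed, close to the share of the named genes. These calls of single genes were not compared across settings, and the count over all genes depends on single libraries. Tlr4 and Lpl were under 1 CPM in every fed IP library. Pnpla3 was named for this difference and the others as members of a list or of the genes with the largest differences or levels, and no explanation was tested.

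Genes of complement and clotting whose IP minus supernatant difference differed between the states are given by the fed minus fasted value on the log2 scale. For C1ra it was 1.0 (adjusted p = 0.00939), from 2.65 in fed mice and 1.65 in fasted mice. For C2 it was 0.91 (adjusted p = 0.0016), from 0.93 in fed mice and 0.02 in fasted mice. For F11 it was 1.0 (adjusted p = 0.0337), from 5.97 in fed mice and 4.97 in fasted mice. For Kng1 it was 1.47 (adjusted p = 0.00699), from 5.44 in fed mice and 3.96 in fasted mice.

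Growth factor, WNT and BMP genes follow in the same unit. For Gas6 it was 1.75 (adjusted p = 0.00984), from 1.66 in fed mice and -0.09 in fasted mice. For Vegfa it was 0.98 (adjusted p = 0.0379), from 5.42 in fed mice and 4.43 in fasted mice. For Lgr4 it was 0.95 (adjusted p = 0.0327), from 4.33 in fed mice and 3.37 in fasted mice. For Lrp5 it was -1.22 (adjusted p = 0.00224), from -1.13 in fed mice and 0.09 in fasted mice. For Nkd1 it was 1.49 (adjusted p = 0.0146), from -1.68 in fed mice and -3.17 in fasted mice. For Smad6 it was 1.11 (adjusted p = 0.0209), from -1.57 in fed mice and -2.68 in fasted mice.

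Receptor genes follow in the same unit. For Ghr it was 0.93 (adjusted p = 0.0489), from 5.24 in fed mice and 4.31 in fasted mice. For Il6ra it was -1.50 (adjusted p = 0.000651), from -1.04 in fed mice and 0.46 in fasted mice. For Insr it was 0.54 (adjusted p = 0.0251), from 1.42 in fed mice and 0.88 in fasted mice. For Lifr it was 3.51 (adjusted p = 0.0035), from 2.70 in fed mice and -0.81 in fasted mice. For Tfrc it was -1.66 (adjusted p = 0.00233), from -0.14 in fed mice and 1.51 in fasted mice. For Tlr4 it was -1.35 (adjusted p = 0.0476), from -8.62 in fed mice and -7.27 in fasted mice.

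Lipid genes and Ptgds follow in the same unit. For Abca1 it was 1.25 (adjusted p = 0.00601), from 0.44 in fed mice and -0.80 in fasted mice. For Lpl it was -3.24 (adjusted p = 0.0415), from -8.38 in fed mice and -5.16 in fasted mice. For Pltp it was 2.69 (adjusted p = 0.00287), from -1.81 in fed mice and -4.50 in fasted mice. For Pnpla3 it was 6.96 (adjusted p = 0.00188), from 3.91 in fed mice and -3.05 in fasted mice. For Ptgds it was 5.39 (adjusted p = 0.00773), with a fed value of 6.82 and too few counts for a test in fasted mice alone.

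The remaining genes follow in the same unit. For Blvrb it was -0.96 (adjusted p = 0.011), from -1.34 in fed mice and -0.38 in fasted mice. For Ctsc it was 1.16 (adjusted p = 0.0408), from -2.89 in fed mice and -4.05 in fasted mice. For Fosl2 it was 1.13 (adjusted p = 0.0344), from -0.79 in fed mice and -1.93 in fasted mice. For Hprt it was -1.39 (adjusted p = 0.00132), from -1.56 in fed mice and -0.17 in fasted mice. For Mki67 it was 1.91 (adjusted p = 0.0275), from -4.23 in fed mice and -6.13 in fasted mice. For Zfp36 it was 1.43 (adjusted p = 0.0287), from 1.55 in fed mice and 0.11 in fasted mice.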

How the results depend on the processing

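Fed calls numbered 5236 higher and 5369 lower in IP. They were 5105 and 5628 with DESeq2, 4997 and 5563 with its size factors in edgeR, 5311 and 5908 without a filter on low counts, 4896 and 4964 with at least 1 CPM in 3 libraries, and 3850 and 6735 when scaled by total counts. Leaving out each library gave 4828 to 5190 higher and 5137 to 5501 lower. With the letter as a replicate block they were 5334 and 5464, fasted calls were 5571 and 5663, and the block changed no call of a named gene other than Rxra, Esrra, Gapdh, Tor1aip1 and Plrg1. Fed minus fasted calls were 835 and 532, against 910 and 554 with the block, 1413 and 927 with DESeq2, and 450 to 979 and 310 to 529 without 1 library.

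Scaled by total counts, the level left in the other fraction moved to 4.99% for plasma proteins, 3.26% for transcription factors, 3.57% for periportal and 7.68% for pericentral genes, 0.979% for monocytes and dendritic cells and 1.46% for T and NK cells. Without 1 library it was 2.46 to 2.8% for transcription factors, 2.41 to 3.57% for periportal genes, 5.14 to 6.68% for pericentral genes, 0.132 to 0.275% for Kupffer cells, 1.09 to 1.43% for monocytes and dendritic cells, 0.0637 to 0.342% for neutrophils, 0.498 to 1.23% for B and plasma cells and 1.31 to 2.16% for T and NK cells. With a difference of at least 5, motif shares were 6.58% for HNF1, 12.2% for GATA and 15.9% for TATA in genes higher, and 10.3% for C/EBP, 6.04% for PU.1 and 11% for TATA in genes lower.

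Of 297 named genes, 256 kept direction and side of the threshold under all settings run. Changes of sign when scaled by total counts were to -0.13 for Afp, -0.33 for Camk1d, -0.26 for Gphn and Lrp1, -0.27 for Lrp6, -0.23 for Med13, -0.04 for Plrg1, -0.07 for Pros1 and -0.00 for Polr2b. Camk1d was at -0.01 with DESeq2 and with its size factors. Without 1 library the ranges were -0.06 to 0.13 for Camk1d, -0.04 to 0.24 for Gphn, -0.06 to 0.25 for Lrp1 and -0.26 to 0.03 for Polr2a. The cause of these changes was not tested. Members with few counts limit the folds given as bounds or with counting intervals.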
